A study of Mus musculus with 22 samples.

Results

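This account follows 10 imprinted genes that act on fetal and placental growth, out of 53342 genes counted, in pancreatic tumors of mice and in cell lines grown from such tumors. The genes are Dlk1, Meg3, Rian, Mirg, H19, Igf2, Igf2r, Peg3, Cdkn1c and Grb10. They were selected on the level of Dlk1, which was lower in the miR-21 knockout tumors with a wide spread, and the other 9 are well-known members of the same class. The values that chose them are therefore those of the knockout against wild-type tumors, and in that contrast every number below is a description with no test.

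RNA was sequenced from 8 knockout (KO) tumors, 4 wild-type (WT) tumors, 5 KO lines and 5 WT lines, and neither the animals nor the lines were treated. The labels give the genotype as miR21 KO or WT, and the mouse line as Bl6, for all 22 libraries. They describe recombined K-Ras and p53 alleles, with loss of heterozygosity, in the lines of both genotypes. The tissue-specific driver of that recombination and the ages of the animals are not given in the sources used here. Each tumor came from a different animal and was snap-frozen as bulk tissue. Each line is the culture of 1 tumor of a symptomatic animal, passaged at least 8 times and used at passage 10 to 14 in 5% serum. By their titles, 5 animals gave both a tumor and a line, 2 of them KO and 3 WT.

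An imprinted gene is read mainly from the copy of a single parent, and which copy is set by DNA methylation laid down in the egg or sperm. Such genes lie in clusters in which a long noncoding RNA from the copy of one parent sits beside protein-coding genes read from the copy of the other. As a class they tune growth before birth: several of those read from the father's copy promote growth, and several of those read from the mother's copy restrain it. In the Dlk1-Dio3 domain of chromosome 12, Dlk1 is read from the father's copy, and Meg3, Rian and Mirg from the mother's copy. In the adult pancreas DLK1, a membrane protein with EGF-like repeats, is best known from endocrine cells.

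Positions are those of GENCODE vM21 on mm10. The Dlk1-Dio3 members lie on the plus strand in the order Dlk1 (chr12:109452823-109463336, protein coding), Meg3 (chr12:109541001-109571726), Rian (chr12:109603940-109661716) and Mirg (chr12:109729764-109749460), the last 3 noncoding. On the minus strand of chromosome 7 lie the noncoding RNA H19 (chr7:142575529-142578143), Igf2 (chr7:142650766-142666816), Cdkn1c (chr7:143458339-143461050) and, far from them, Peg3 (chr7:6703892-6730431). Igf2r (chr17:12682406-12769664) and Grb10 (chr11:11930508-12038683) are coding genes on the minus strand of chromosomes 17 and 11.

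The deleted RNA, miR-21a-5p, recognizes messenger RNAs through bases 2 to 8, its seed. Its mature sequence from RefSeq is shown first, with the seed in capitals. Below it stand, from GENCODE vM21 transcripts, the matches found to the complement of that seed (ATAAGCT). The search covered the 3′ UTRs of the coding members and the length of the noncoding transcripts. For each gene it used only the transcript with the longest such region, so other transcripts may hold further matches. The match is in capitals, with the A that makes an 8-base match where there is one, and each is a description of letters, not of a working site.

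mmu-miR-21a-5p: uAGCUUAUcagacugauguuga

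Rian, chr12:109649200-109649227, plus strand: gagccccctaATAAGCTgcttcagattg

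Rian, chr12:109653136-109653163, plus strand: attattaggaATAAGCTAcagttagata

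Rian, chr12:109653465-109653492, plus strand: tcacttggatATAAGCTccattttgctc

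Grb10 3′ UTR, chr11:11932330-11932357, minus strand: aggcacaagcATAAGCTggctttgagtc

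Rian held 3 matches in 8089 bases of transcript, and Grb10 held 1 in 2955 bases of 3′ UTR. No match lay in the searched regions of the other 8 members. For comparison, 7.21% of 20952 coding genes had at least 1 match in the 3′ UTR. That share is for 3′ UTRs of any length from 20 bases and is not matched to the length searched in Grb10. It gives no background for a noncoding transcript such as Rian.

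Several of the noncoding members, and the coding gene Igf2, are also hosts of miRNAs. Within the span of the gene, introns included, Mirg holds 14 miRNA hairpins, Rian 3, and H19 and Igf2 hold 1 each. The exons of Meg3 overlap the miRNA genes Mir770 and Mir1906-1. The libraries were made from polyadenylated RNA, so they measure the host transcripts and not the mature miRNAs. The levels below are those of the host genes, whose spans hold, among others, these mature sequences from RefSeq, with the seed in capitals. The hairpins Mir410 and Mir675 share bases with exons of Mirg and H19. No miRNA hairpin shares bases with the annotated exons of Rian or Igf2, so their levels are not those of a transcript shown to contain one.

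mmu-miR-370-3p, in Rian: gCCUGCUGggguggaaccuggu

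mmu-miR-410-3p, in Mirg: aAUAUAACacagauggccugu

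mmu-miR-675-3p, in H19: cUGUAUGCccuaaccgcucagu

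None of the mature miRNAs hosted by the members shares the seed of miR-21a-5p.

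Library totals ran from 24547650 to 31118113 counts, and all levels are given as CPM, the count divided by the library total, in the usual unit of depth, and by a TMM factor, a correction for differences in composition between libraries. A gene with 0 counts in a library could still be present at up to 0.0906 to 0.133 CPM (3 counts, counting error only). Some libraries stood apart in markers of other cell types. The summed CPM of 10 fibroblast markers was 2017 to 12094 in KO tumors, against 2922 to 7680 in WT tumors, but 3.24 to 7.67 in KO lines and 2.32 to 16.2 in WT lines. Dcn, Lum and Dpt were at 0 counts in every line. KO tumor 2 had the lowest fibroblast sum of the tumors, WT tumor 3 held 1873 CPM of skeletal muscle markers against 18.7 to 77.6 CPM in the other tumors, and KO tumor 4 held the most of the acinar markers, 2645 CPM. WT line 3 had the lowest ductal and mesothelial sums of the lines, 7748 and 1039 CPM, and the highest hepatocyte sum, 379 CPM. In bulk tissue, fewer cells of a type and less RNA per cell cannot be told apart.

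Dlk1 was scarce in KO tumors and uneven in WT tumors. It stood at 0.545, 1.16, 2.60, 0.478, 2.31, 0.881, 2.64 and 0.394 CPM in KO tumors 1 to 8, against 24.4, 2.14, 15.7 and 133 CPM in WT tumors 1 to 4. WT tumor 2 lay inside the KO range, and the groups therefore overlapped. The mean was 1.37 ± 0.98 CPM in KO tumors (SD, n = 8) and 43.7 ± 60.0 CPM in WT tumors (SD, n = 4), and the fitted log2 fold change was -5.02 ± 0.84 (SE). Without WT tumor 4, which had 3789 of the Dlk1 counts, it was -3.36. This difference chose the genes and carries no test. Islet endocrine markers, 15 genes, summed to 2.94 to 443 CPM in KO tumors, against 1.41 to 66.1 CPM in WT tumors. Proliferation markers, 10 genes, summed to 248 to 691 CPM in KO tumors, against 495 to 889 CPM in WT tumors. Their part in the level of Dlk1 was not tested.

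**Figure D1:**
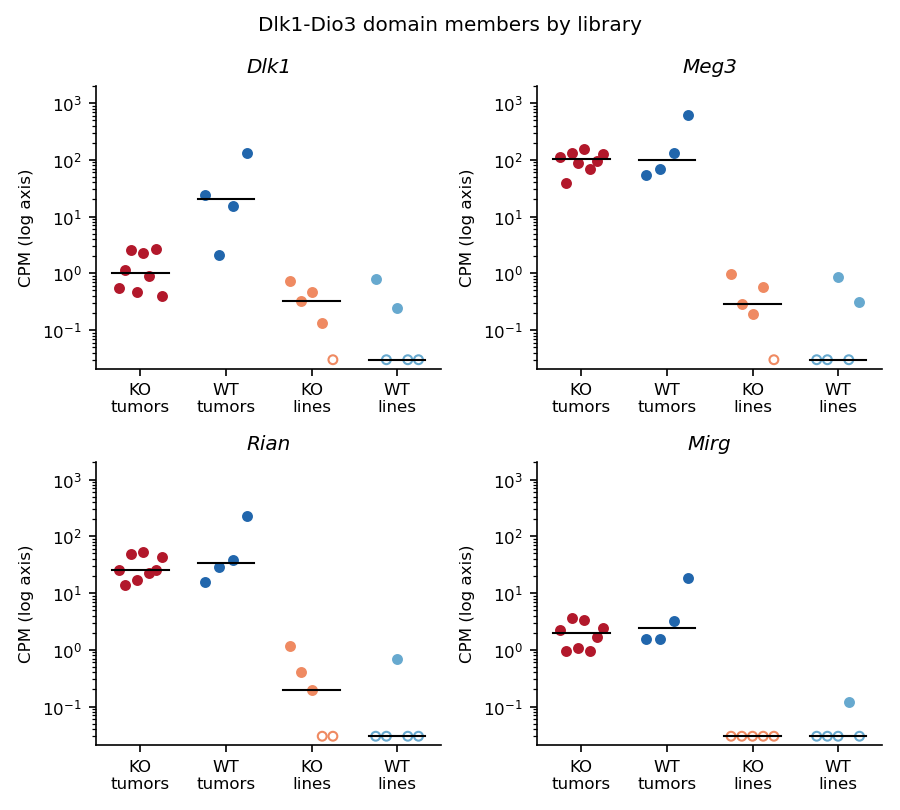
CPM on a log axis of Dlk1, Meg3, Rian and Mirg in each library of the 8 KO tumors, 4 WT tumors, 5 KO lines and 5 WT lines; bars are medians and open points at the bottom mark 0 counts. WT tumor 4 is the highest library for all 4 genes, and for Dlk1 the other WT tumors spread from 2.14 to 24.4 CPM.

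The maternally read transcripts of the same domain did not follow Dlk1 across all tumors. Meg3, which is known to restrain growth in cultured tumor cells, stood at 39.2 to 153 CPM with a median of 104 CPM in KO tumors, against 54.7, 69.7, 132 and 610 CPM in WT tumors. Rian, host of many small nucleolar RNAs, stood at 14.1 to 52.9 CPM with a median of 25.3 CPM in KO tumors, against 15.7, 28.9, 38.1 and 231 CPM in WT tumors. Mirg stood at 0.943 to 3.68 CPM with a median of 1.96 CPM in KO tumors, against 1.53, 1.57, 3.21 and 18.2 CPM in WT tumors. For all 3, WT tumor 4 was the highest library and the other 3 WT tumors lay inside the KO range.

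The fitted log2 fold changes of KO over WT tumors were -1.12 ± 0.55 for Meg3, -1.37 ± 0.60 for Rian and -1.62 ± 0.64 for Mirg (SE). Without WT tumor 4 they were 0.23 for Meg3, 0.15 for Rian and -0.06 for Mirg. The lower fitted level of these 3 transcripts in KO tumors thus rested on WT tumor 4, whereas Dlk1 was also high in WT tumors 1 and 3. Some marker sums of WT tumor 4 were not extreme. Fibroblast markers summed to 3846 CPM there, islet endocrine markers to 11.4 CPM and adrenal markers to 9.76 CPM. Its ductal sum of 14477 CPM was the highest of the tumors. Its acinar sum was 505 CPM, against 17.3, 71.8 and 25.8 CPM in WT tumors 1 to 3, while KO tumors reached 2645 CPM. Its smooth muscle and myofibroblast sum of 878 CPM was the highest of the WT tumors, below 2031 CPM in KO tumor 5. The part of cell makeup in these levels was not tested.

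A ratio between transcripts of the domain describes each tumor without any scaling between libraries. Per kilobase of exon, Meg3 over Dlk1 ran from 10.6 to 100.2 in KO tumors and was 0.703, 10.2, 2.63 and 1.44 in WT tumors 1 to 4. The groups did not overlap, by a narrow margin between KO tumor 2 at 10.6 and WT tumor 2 at 10.2. Dlk1 had 32 and 67 counts in these tumors, and the margin lies within that counting error. This ratio holds the values that chose Dlk1, so it is a description too. The ratios among the maternal transcripts moved far less: Rian over Meg3 ran from 0.192 to 0.365 in KO tumors, against 0.285 to 0.411 in WT tumors. Mirg over Meg3 ran from 0.0301 to 0.0690 in KO tumors, against 0.0558 to 0.0741 in WT tumors.

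**Figure D2:**
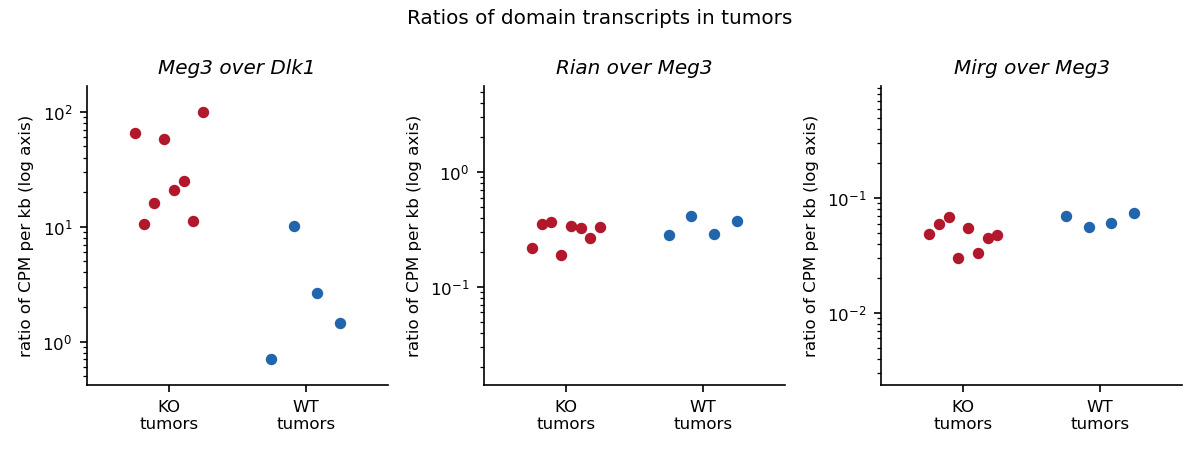
Ratio of CPM per kilobase of exon, on a log axis, for Meg3 over Dlk1, Rian over Meg3 and Mirg over Meg3 in 8 KO tumors and 4 WT tumors, 1 point per tumor. Meg3 over Dlk1 spreads from 0.703 to 100.2 across tumors, and Rian over Meg3 stays between 0.192 and 0.411.

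The likeness of patterns was described by Pearson's r on log2 CPM over the 12 tumors, among 15221 genes with a mean of at least 1 CPM. The points share the 2 genotypes, so a difference between them enters each r. WT tumor 4, far above the other WT tumors for Dlk1, Meg3, Rian and Mirg, enters each r too, and no r was computed without it. For Meg3, the closest gene was Tmem106c (r = 0.96), followed by Rian (r = 0.95) and Mirg (r = 0.95). For Rian the closest were Mirg (r = 0.96) and Meg3 (r = 0.95), and for Mirg they were Rian and Meg3. Dlk1 had other neighbors: Poldip2 (r = 0.92), Prrx2 (r = 0.92), Erh (r = 0.91), Phb2 (r = 0.91) and Eipr1 (r = 0.91). Its r was 0.69 with Mirg, 0.58 with Rian and 0.53 with Meg3, which ranked 729, 1545 and 1915 among the 15221 genes.

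Within the 8 KO tumors, where the genotype does not enter, no relation of Dlk1 to the other 9 members passed. Pearson's r ran from -0.39 with Grb10 to 0.38 with Mirg, with exact two-sided permutation p of 0.353 and 0.329, and the lowest value adjusted over the 9 relations was 0.947. Spearman's rho ran from -0.55 with Cdkn1c (p = 0.171) to 0.36 with Igf2 (p = 0.389), again by exact permutation. Dlk1 had 12 to 87 counts in these tumors, which limits what a correlation can show. Without the 2 tumors farthest from the median of Dlk1, r with Mirg was 0.20 and r with Grb10 was -0.71.

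Other genes of the domain gave these values in tumors. Dio3, the deiodinase that inactivates thyroid hormone, averaged 24.6 ± 9.0 CPM in KO tumors (SD, n = 8) and 10.0 ± 8.7 CPM in WT tumors (SD, n = 4), a log2 fold change of 1.26 ± 0.52 in the direction opposite to Dlk1. Rtl1, a retrotransposon-derived gene read from the father's copy, averaged 1.03 CPM in KO tumors and 0.630 CPM in WT tumors. Of the 6 other domain genes tested, 2 had a positive and 4 a negative fold change in KO against WT tumors, and the median was -0.13, beside 0.01 for all 18125 genes tested.

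H19 and Igf2, neighbors on chromosome 7 read from opposite parents' copies, share enhancers. Igf2 encodes a fetal growth factor and H19 a noncoding RNA. H19 stood at 8.88 CPM in KO tumor 2 and at 92.0 to 407 CPM in the other 7 KO tumors, against 8.92, 11.9, 89.2 and 119.7 CPM in WT tumors. WT tumors 1 and 2 and KO tumor 2 were low, and the groups overlapped. The mean was 204 ± 128 CPM in KO tumors (SD, n = 8) and 57.4 ± 55.7 CPM in WT tumors (SD, n = 4), a log2 fold change of 1.79 ± 0.88 (SE).

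Igf2 was close to the limit of detection in most tumors, at 0 to 2.03 CPM in 7 KO tumors and 7.21 CPM in KO tumor 6, against 0.0711, 0.128, 0.0642 and 0.770 CPM in WT tumors. Of its exonic bases, 62.8% are shared on the same strand with the coding model Gm49394, which has 0 counts, and how reads in both genes were counted is not given in the sources used here. Its values are therefore uncertain as a measure of the whole gene. H19 over Igf2, per kilobase of exon, ran from 78.9 in KO tumor 6 to 1358 in KO tumor 8 among the 6 KO tumors with at least 10 counts of Igf2. It was 362 in WT tumor 4, the single WT tumor with as many.

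**Figure D3:**
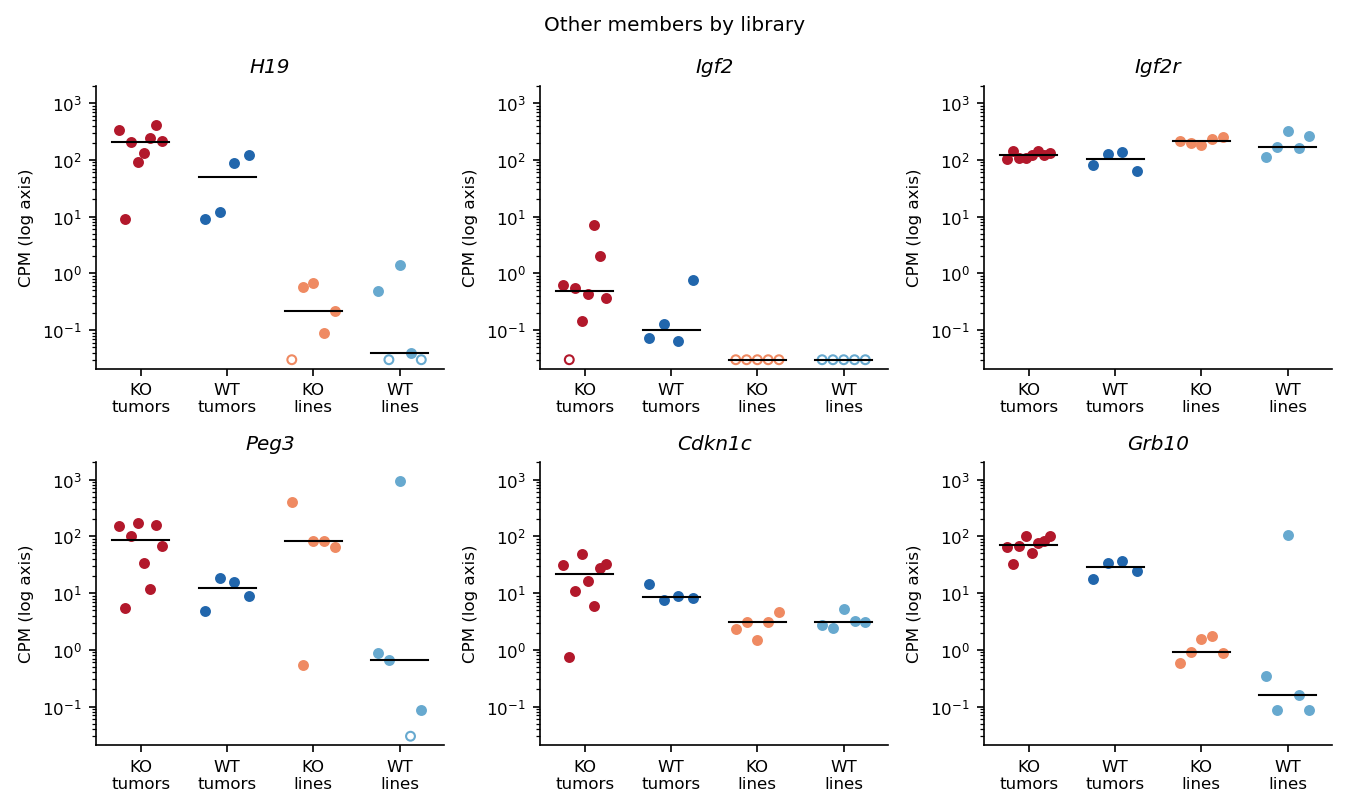
CPM on a log axis of H19, Igf2, Igf2r, Peg3, Cdkn1c and Grb10 in each library; bars are medians and open points at the bottom mark 0 counts. KO tumor 2 is the lowest KO tumor for H19, Igf2, Peg3, Cdkn1c and Grb10, and WT line 3 stands above the other WT lines for Peg3 and Grb10.

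Peg3, a zinc-finger protein read from the father's copy, stood at 5.55 to 174 CPM with a median of 85.2 CPM in KO tumors, against 4.80, 18.1, 15.4 and 8.78 CPM in WT tumors, a log2 fold change of 2.88 ± 0.87 (SE). KO tumors 2 and 6 lay inside the WT range and the other 6 KO tumors above it. Zim1, read from the mother's copy beside Peg3, averaged 11.2 CPM in KO tumors and 0.544 CPM in WT tumors and was among the 5 genes closest to Peg3 over the 12 tumors (r = 0.93). The others were Wdr66 (r = 0.97), Lama2 (r = 0.95), Tmem204 (r = 0.95) and Pmp22 (r = 0.93).

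Cdkn1c encodes p57, an inhibitor of cyclin-dependent kinases. It stood at 0.762 to 49.8 CPM with a median of 21.63 CPM in KO tumors, against 14.5, 7.45, 8.96 and 8.12 CPM in WT tumors, a log2 fold change of 1.14 ± 0.74 (SE). Of its exonic bases, 30.7% overlap the antisense gene Gm44732 on the other strand, and whether the counting used strand is not given in the sources used here. Grb10, an adaptor that dampens insulin and IGF receptor signals, stood at 32.2 to 102 CPM with a median of 70.9 CPM in KO tumors, against 17.5, 34.2, 36.0 and 24.1 CPM in WT tumors, a log2 fold change of 1.35 ± 0.31 (SE). KO tumor 2 alone overlapped the WT tumors for Grb10. Igf2r, the receptor that clears IGF2 for degradation, varied least: it stood at 104 to 143 CPM in KO tumors, against 63.4 to 136 CPM in WT tumors, a log2 fold change of 0.24 ± 0.20 (SE).

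H19, Peg3, Cdkn1c and Grb10 were each lowest, among the KO tumors, in KO tumor 2. So were Meg3, Rian, Mirg and Igf2, at 39.2, 14.1, 0.943 and 0 CPM, though Mirg in KO tumor 6 was close, at 0.946 CPM. Igf2r was the highest of the KO tumors in KO tumor 2, and Dlk1 was neither lowest nor highest there. That tumor also had the lowest sum of fibroblast markers, 2017 CPM, and the lowest acinar and islet sums among KO tumors, 30.97 and 2.94 CPM. Over all tumors, the genes closest to Grb10 were Pdpn, Arhgap28, Arxes2, Reck and 9230114K14Rik (r of 0.95 to 0.96), and those closest to Cdkn1c were Adamts5, Tent5a, Guk1, Med12l and Rhoj (r of 0.92 to 0.95). The part of stromal content in these levels was not tested.

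None of the 10 members had KO and WT tumors that did not overlap. Among all 18125 genes tested, 1.24% had every KO tumor above every WT tumor and 0.767% had every KO tumor below, and 0.0110% passed an adjusted p of 0.05 in edgeR's quasi-likelihood test. The contrast is the one that chose the genes, and nothing is read from these shares for the members.

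The spread within a group of tumors was wider than that of the median gene for most members. A wide spread of Dlk1 in tumors was part of what chose the genes, so its SD and rank are descriptions. In WT tumors the SD of log2 CPM was 2.43 for Dlk1, wider than for 97.8% of 14880 genes with a mean of at least 1 CPM, whose median SD was 0.39. Cdkn1c, Grb10 and Igf2r were nearer that median, with SDs wider than for 55.4%, 62.5% and 66.7% of these genes. In KO tumors the SD was 1.06 for Dlk1, 1.75 for H19, 1.86 for Peg3 and 1.901 for Cdkn1c, against a median of 0.38 over 15212 genes. For Grb10, Meg3, Rian and Mirg it was smaller in KO tumors, at 0.55, 0.63, 0.70 and 0.77. Igf2r was among the steadier genes there, with an SD of 0.18, and 10.6% of genes had a smaller SD.

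In the lines, KO and WT can be compared on values that did not choose the genes. Dlk1, Meg3, Rian, Mirg, H19 and Igf2 were too low in the lines to be tested there. Dlk1 stood at 0.737, 0.326, 0.469, 0.133 and 0 CPM in KO lines 1 to 5, against 0.801, 0, 0.243, 0 and 0 CPM in WT lines 1 to 5, at most 21 counts in any line. Meg3 reached 0.959 CPM in KO lines and 0.849 CPM in WT lines, and Rian 1.18 CPM in KO lines and 0.687 CPM in WT lines. H19 reached 0.665 CPM in KO lines and 1.41 CPM in WT lines. Mirg was at 0 in every KO line and had 3 counts in WT line 4, and Igf2 was at 0 counts in all 10 lines.

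None of the 4 members tested in the lines passed, by edgeR's quasi-likelihood test with Benjamini-Hochberg adjustment over 14020 genes, of which 0.0143% passed. Igf2r averaged 215 ± 26 CPM (SD) in the 5 KO lines, against 206 ± 85 CPM (SD) in the 5 WT lines, with a log2 fold change of 0.07 ± 0.26 (SE; adjusted p = 0.958). Cdkn1c averaged 2.92 ± 1.18 CPM (SD) in the 5 KO lines, against 3.36 ± 1.15 CPM (SD) in the 5 WT lines (edgeR adjusted p = 0.907). A p that misses the threshold does not show that the levels are alike.

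Peg3 was either plainly read or nearly silent in a line. It stood at 397, 0.543, 83.7, 81.6 and 65.7 CPM in KO lines 1 to 5, against 0.877, 0.657, 958, 0 and 0.0876 CPM in WT lines 1 to 5. Thus 4 of 5 KO lines and 1 of 5 WT lines were above 60 CPM, and all the others were below 1 CPM. The log2 fold change was -0.63 ± 2.09 (SE; edgeR adjusted p = 0.953), and without WT line 3 it was 8.27 (adjusted p = 0.228). The SD of log2 CPM was 3.53 in KO lines and 5.43 in WT lines, wider than for 99.9% and 99.98% of the genes compared.

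Usp29, read from the father's copy like Peg3, begins 147 bases from the Peg3 start on the opposite strand. It had 229, 0, 65, 45 and 73 counts in KO lines 1 to 5, against 0, 0, 495, 0 and 0 counts in WT lines 1 to 5, so that it was counted in the 5 lines with Peg3 above 60 CPM and in no other. Over the 10 lines its r with Peg3 was 0.97, next to Bicra (r = 0.98). Because both genes move together in these lines, the stretch between their starts is shown, from RefSeq's promoter table on GRCm38.p6, written on the Peg3 strand.

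Peg3 to Usp29, chr7:6730432-6730577, minus strand: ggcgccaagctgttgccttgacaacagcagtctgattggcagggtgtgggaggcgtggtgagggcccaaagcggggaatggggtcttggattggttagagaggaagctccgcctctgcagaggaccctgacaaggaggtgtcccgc

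No TGACGTCA, TATAAA or GCCATNTT, searched on both strands, lies in these 146 bases. The nearest TGACGTCA lies at chr7:6730590-6730597, just inside the start of Usp29. Of 32851 promoter windows of 300 bases, 1.79% hold TGACGTCA, 13.6% hold TATAAA and 6.05% hold GCCATNTT.

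Grb10 was low in 9 of 10 lines. It stood at 0.590, 0.906, 1.57, 1.77 and 0.867 CPM in KO lines 1 to 5, against 0.343, 0.0877, 106, 0.160 and 0.0876 CPM in WT lines 1 to 5. WT line 3 was again the exception. The log2 fold change was -4.24 ± 1.901 (SE; edgeR adjusted p = 0.714), and 2.72 without WT line 3 (adjusted p = 0.228).

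WT line 3 also had counts of several other imprinted genes that were low or at 0 in most lines, chosen here after their values were seen. Ndn, read from the father's copy, had 180 counts there and at most 1 count in any other line. Magel2 had 20 counts there and 0 in the other 9 lines, and Zim1 had 71 counts there and at most 5 in the others. Sgce had 354 counts in WT line 3 and 225 in WT line 5. This line stood apart in its marker sums too, as given above.

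**Figure D4:**
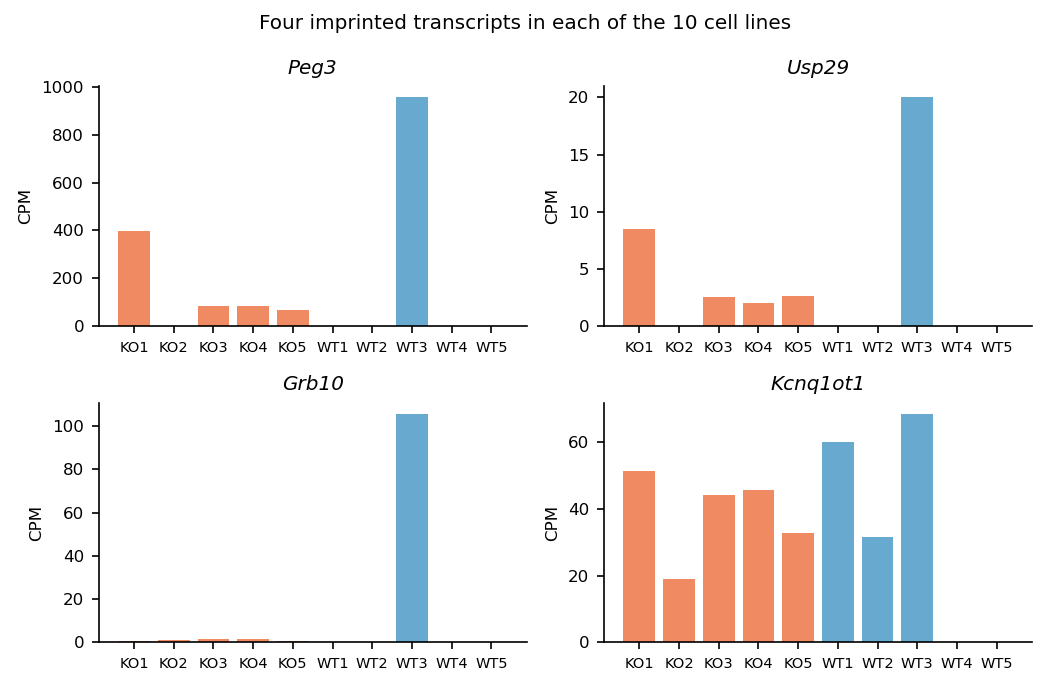
CPM of Peg3, Usp29, Grb10 and Kcnq1ot1 in KO lines 1 to 5 and WT lines 1 to 5, each axis starting at 0. Usp29 has counts in the same 5 lines as Peg3, Grb10 is high in WT line 3 alone, and Kcnq1ot1 has 0 counts in WT lines 4 and 5.

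Kcnq1ot1 is the noncoding RNA, read from the father's copy, of the cluster that holds Cdkn1c. It had 521 to 1391 counts in KO lines and 719 to 1693 counts in WT lines 1 to 3, but 0 counts in WT lines 4 and 5. Cdkn1c itself did not stand apart in those lines, at 3.24 and 3.11 CPM, against 2.41 to 5.34 CPM in the other WT lines. By its title, WT line 4 came from the animal of WT tumor 3, whose 233 counts of Kcnq1ot1 (7.48 CPM) were the lowest of the 12 tumors. Airn, the antisense RNA of Igf2r, had 0 counts in WT line 5 and 72 to 249 counts in the other lines, and Igf2r stood at 267 CPM in WT line 5, inside the range of the other WT lines.

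Across the 10 lines, Dlk1 was compared with the 8 members that had any counts, by permutation of log2 CPM over 100000 resamples. The closest was Rian (r = 0.63, p = 0.0555; rho = 0.66, p = 0.0431; lowest adjusted p 0.409 for r and 0.339 for rho). Without WT line 1, r with Rian was 0.88 (adjusted permutation p = 0.0291), and without the 2 lines farthest from the median of Dlk1 it was 0.55. These values rest on 65 counts of Rian in all 10 lines.

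Tumors and lines of one genotype were compared in a joint fit of all 22 libraries. In KO animals, 34.2% of 18662 genes were higher and 22.9% lower in tumors than in lines (edgeR, adjusted p under 0.05), 57.1% in all. In WT animals 28.0% were higher and 18.5% lower, 46.5% in all. With the library total as the only scaling, 7545 genes were higher and 2753 lower in KO animals, against 6384 and 4270 with TMM, and 5897 higher and 2407 lower in WT animals, against 5225 and 3453. Calls were common in this contrast under both scalings. All 10 members passed the filter on low counts, but Dlk1, Meg3, Rian, Mirg, H19 and Igf2 passed it through the tumors alone and so had to differ. Their fold changes are therefore given as descriptions, with no test.

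Meg3 averaged 102 ± 37 CPM in KO tumors (SD, n = 8) and 0.404 ± 0.373 CPM in KO lines (SD, n = 5), a log2 fold change of 8.04 ± 0.95 (SE). In WT animals it averaged 217 ± 265 CPM in tumors (SD, n = 4) and 0.231 ± 0.370 CPM in lines (SD, n = 5), a log2 fold change of 9.91 ± 1.06 (SE). Rian was higher in tumors by 6.48 ± 1.07 in KO and 9.15 ± 1.26 in WT animals on the log2 scale (SE). Every tumor stood above every line of its genotype for Meg3, Rian and Mirg, which held for 20.1% of all genes tested in KO animals and for 3739 of the 18662 genes in WT animals. Mirg was at least 90.7-fold higher in KO tumors, taking 3 counts over the 5 KO lines as the floor.

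**Figure D5:**
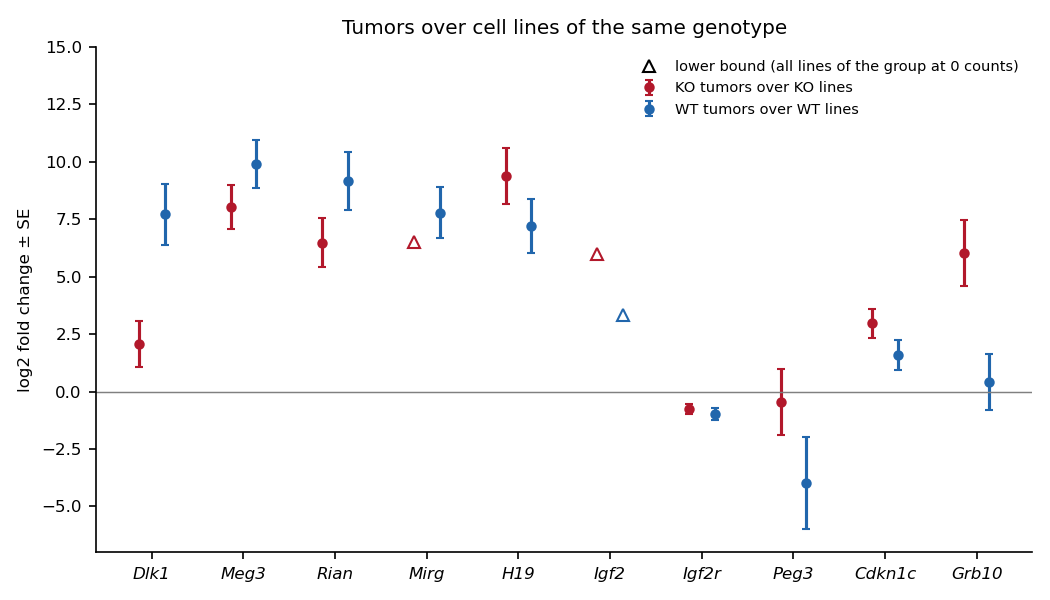
Log2 fold change with SE of each member in KO tumors over KO lines and in WT tumors over WT lines, from a joint fit of 22 libraries; open triangles are lower bounds where every line of the group had 0 counts. Meg3, Rian, Mirg and H19 lie above 6 in both genotypes, and Igf2r lies below 0 in both.

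H19 was higher in tumors by 9.39 ± 1.24 in KO and 7.21 ± 1.17 in WT animals on the log2 scale (SE). Igf2 was at least 63.4-fold higher in KO tumors and at least 10.2-fold higher in WT tumors, with the floor of 3 counts over the 5 lines of each genotype. The WT value rests on 2 to 22 counts in a tumor. The KO value pools 352 counts over the KO tumors, of which 221 came from KO tumor 6, and KO tumor 2 had 0.

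The fitted difference of Dlk1 between tumors and lines was 2.08 ± 1.01 in KO animals and 7.71 ± 1.34 in WT animals on the log2 scale (SE), given without a test because both contrasts use the tumors that chose the gene.

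Igf2r fell in tumors of both genotypes. It averaged 122 ± 15 CPM in KO tumors (SD, n = 8) and 215 ± 26 CPM in KO lines (SD, n = 5), with a log2 fold change of -0.76 ± 0.21 (SE; edgeR adjusted p = 0.00439). In WT animals it averaged 102 ± 35 CPM in tumors (SD, n = 4) and 206 ± 85 CPM in lines (SD, n = 5), with a log2 fold change of -0.96 ± 0.26 (edgeR adjusted p = 0.00469). The WT call was lost when the WT libraries were fitted alone (adjusted p = 0.0661). The median of all genes was 0.17 in KO and 0.13 in WT animals, and 0.38 and 0.28 with the library total as the only scaling, under which Igf2r was still lower in tumors.

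Grb10 rose in KO tumors, which averaged 72.3 ± 23.9 CPM (SD, n = 8), against 1.14 ± 0.50 CPM in KO lines (SD, n = 5; log2 fold change 6.05 ± 1.43, edgeR adjusted p = 0.00141). In WT animals the difference was 0.43 ± 1.22 (edgeR adjusted p = 0.7965), and without WT line 3 it was 7.37 (adjusted p = 1.448e-08). Cdkn1c rose in KO tumors by 2.97 ± 0.63 on the log2 scale (edgeR adjusted p = 0.000586), though not with the animal as a block (1.86, limma-voom adjusted p = 0.0744). In WT animals it was 1.58 ± 0.66 higher and did not pass (edgeR adjusted p = 0.0541). It passed without WT line 3 (1.82, adjusted p = 0.0416), and over its alternatives the adjusted p ran from 0.00637 to 0.228.

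Peg3 did not pass in either genotype. The log2 difference between tumors and lines was -0.45 ± 1.45 in KO animals (edgeR adjusted p = 0.805) and -3.98 ± 2.01 in WT animals (adjusted p = 0.111). Without WT line 3 the WT difference was 4.91 (adjusted p = 0.00793), so its sign depended on that line. DESeq2 gave a WT difference of -3.89 (adjusted p = 0.0442). In the animal of KO tumor 2 and KO line 1, Peg3 stood at 5.55 CPM in the tumor and 397 CPM in the line. In the other animals with both, it stood at 103 CPM in the KO tumor and 65.7 CPM in the KO line, and at 4.80, 18.1 and 15.4 CPM in the WT tumors and 0.877, 0.657 and 0 CPM in their lines.

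Per kilobase of exon, the order of the members differed between materials. In KO tumors H19 led with 82.8 ± 52.2 CPM per kilobase, followed by Igf2r at 13.1 ± 1.6, Cdkn1c at 10.7 ± 8.0, Grb10 at 7.96 ± 2.63, Peg3 at 6.62 ± 5.11 and Meg3 at 5.65 ± 2.04 (SD, n = 8). The levels overlapped from one to the next, and H19 stood at 3.61 CPM per kilobase in KO tumor 2. In WT tumors H19 stood at 23.3 ± 22.6, Meg3 at 12.0 ± 14.6, Igf2r at 10.9 ± 3.8 and Dlk1 at 7.72 ± 10.60 CPM per kilobase (SD, n = 4), all overlapping. In the lines Igf2r led on average, at 23.1 ± 2.8 in KO lines and 22.1 ± 9.1 CPM per kilobase in WT lines (SD, n = 5 each). Peg3 stood above Igf2r in KO line 1 (29.8 against 23.2) and in WT line 3 (71.9 against 34.3).

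The Meg3 promoter is shown because Meg3 and the transcripts after it were read in every tumor and nearly silent in every line. These are the 250 bases before its start in RefSeq's promoter table on GRCm38.p6, with TGACGTCA and an overlapping pair of TATAAA matches, 1 on each strand, in capitals.

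Meg3, chr12:109540746-109540995, plus strand: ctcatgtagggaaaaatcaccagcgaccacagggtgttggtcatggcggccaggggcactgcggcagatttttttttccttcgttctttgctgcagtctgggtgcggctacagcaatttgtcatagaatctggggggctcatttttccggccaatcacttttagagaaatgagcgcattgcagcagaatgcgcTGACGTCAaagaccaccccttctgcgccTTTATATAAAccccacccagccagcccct

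The shares of all promoter windows with these motifs are those given with the Peg3 stretch. They are matches of letters, and the data hold no measurement of binding or methylation here.

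Pathway genes around the members were described by lists. Genes that are nearly silent in the lines pass the filter on low counts through the tumors alone, so calls were counted among genes that pass it in the lines and in the tumors separately, a restriction added after seeing the data. Among all 13818 such genes, 20.3% were higher and 29.8% lower in KO tumors than in KO lines, and 16.3% were higher and 24.1% lower in WT tumors than in WT lines (edgeR adjusted p under 0.05). Their median log2 fold change was -0.10 in KO and -0.11 in WT animals. With lists this short, nothing particular to a list is read from its count.

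Of 6 ligands, receptors and adaptors of IGF signaling, none rose and 2 fell in KO tumors, and none rose and 1 fell in WT tumors, with medians of -0.56 in KO and -0.16 in WT animals. Irs2, an adaptor of the insulin and IGF1 receptors, averaged 49.3 CPM in KO tumors and 99.5 CPM in KO lines (log2 fold change -0.97 ± 0.26, edgeR adjusted p = 0.00348). Igf1, the growth factor most like IGF2, passed the filter through the tumors alone. It averaged 70.2 CPM in KO tumors and 0.0919 CPM in KO lines, and 28.7 CPM in WT tumors and 0.788 CPM in WT lines.

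Of 4 IGF binding proteins, 2 rose in KO tumors and 1 in WT tumors, and none fell, with medians of 1.70 in KO and 0.74 in WT animals. Igfbp3 averaged 414 CPM in KO tumors and 37.6 CPM in KO lines (log2 fold change 3.52 ± 0.99, edgeR adjusted p = 0.00528). Of the 3 Igf2 mRNA-binding proteins, Igf2bp1, Igf2bp2 and Igf2bp3 fell in KO tumors and Igf2bp3 in WT tumors, with medians of -1.65 in KO and -1.04 in WT animals. Igf2bp1, a fetal RNA-binding protein, averaged 5.16 CPM in KO tumors and 39.7 CPM in KO lines (log2 fold change -2.88 ± 0.88, edgeR adjusted p = 0.00884).

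Of 6 other inhibitors of cyclin-dependent kinases, 1 rose in tumors of both genotypes, and 4 fell in KO and 3 in WT animals, with medians of -0.55 in KO and -0.61 in WT animals. Cdkn1a, the p53 target p21, rose by 2.05 ± 0.30 in KO and 2.29 ± 0.33 in WT animals on the log2 scale (edgeR adjusted p = 1.194e-05 and 1.934e-05). Cdkn2a fell by 1.44 in KO animals (edgeR adjusted p = 0.000431). All 10 proliferation markers were lower in tumors than in lines of both genotypes. Of 5 relatives of Grb10 and brakes on insulin signals, 2 rose and 1 fell in KO animals, and 3 rose and 1 fell in WT animals, with medians of 0.30 and 0.61. Grb14 fell by 1.64 in WT animals (edgeR adjusted p = 0.00105).

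Of 10 Notch receptors, ligands and relatives of DLK1, 3 rose and 1 fell in KO animals, and 2 rose and 1 fell in WT animals, with medians of -0.14 and 0.46. Of 11 genes that maintain imprints or DNA methylation, 3 rose and 3 fell in KO, and 2 rose and 4 fell in WT animals, with medians of 0.23 and -0.10. Dnmt1, which copies methylation at replication, fell by 1.71 in KO and 1.91 in WT animals (edgeR adjusted p = 1.495e-06 and 1.154e-05). Dnmt3b, which places new methylation, rose by 1.46 ± 0.30 in KO animals (edgeR adjusted p = 0.000443).

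Of 17 further imprinted genes, 3 rose and 5 fell in KO tumors, and 2 rose and 4 fell in WT tumors, with medians of 0.23 in KO and -0.14 in WT animals. Gnas averaged 566 CPM in KO tumors and 1237 CPM in KO lines (log2 fold change -1.08 ± 0.13, edgeR adjusted p = 1.355e-06). Of 10 genes from the H19-Igf2 and Kcnq1 domains, 1 rose and 1 fell in KO animals, and 3 rose and 1 fell in WT animals, with medians of 0.38 and 0.51. Of 4 neighbors of Igf2r, Peg3 and Grb10, none rose and 1 fell in animals of either genotype, with medians of -1.05 in KO and -1.75 in WT animals. Of the 4 other genes of the Dlk1-Dio3 domain, none rose or fell, with medians of -0.04 in KO and 0.25 in WT animals. Dio3, at the far end of that domain, averaged 24.6 CPM in KO tumors and 19.3 CPM in KO lines (log2 fold change 0.41 ± 0.77, edgeR adjusted p = 0.669).

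No gene of these lists passed in KO against WT lines. Stc2, a glycoprotein that inhibits the processing of IGF binding proteins, averaged 60.1 CPM in KO lines and 25.1 CPM in WT lines (log2 fold change 1.29 ± 0.56, edgeR adjusted p = 0.714). Every KO line was above every WT line for Cdkn2b, at 118 against 86.1 CPM on average (0.47 ± 0.11, edgeR adjusted p = 0.545), as for 0.649% of the 14020 genes tested. The lists were chosen with earlier results of these data known.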

How the data were processed

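The authors deposited raw counts for each gene in 2 tables, 1 of lines and 1 of tumors. Per the labels' protocols, libraries were made from TRIzol RNA with a stranded mRNA kit and read as single-end 75-base reads. Per the submitters' processing notes, the authors used bcl2fastq 1.9.0, Trim Galore, STAR and mm10. The counting program, its strand setting and its annotation are not given in the sources used here. Ensembl IDs were matched without version to GENCODE vM21: 53237 of 53342 had a symbol, and the other 105 (0.00944% of counts) stayed in the tests by ID.

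Counts were tested with edgeR 4.0.16 in R 4.3.3 (TMM, filterByExpr, robust quasi-likelihood, Benjamini-Hochberg over all genes, threshold 0.05). KO against WT was fitted within each material, and tumors against lines over all 22 libraries as 4 groups. Log2 CPM used a prior count of 2. The fits were tested on simulated counts. Alternatives were RLE factors, library totals alone, other filters, DESeq2 1.42.0, limma-voom (limma 3.58.1), an animal block, other sets of libraries and each library left out.

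The members, lists and tests were chosen with earlier results of these data known. Named genes were all 10 members; of each list, up to 4 genes by smallest p (KO against WT tumors: by highest mean CPM); and per member the 5 genes of highest r. Genes named outside that rule are Rtl1 in KO against WT tumors, and Usp29, Kcnq1ot1, Airn, Ndn, Magel2, Zim1 and Sgce in single lines, chosen after their values were seen. No 2 libraries agreed within sampling noise (lowest chi-square per degree of freedom 47.2). Intervals and limits of detection cover counting error only. Sequences came from RefSeq tables and GENCODE transcripts.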

Additional observations from a re-analysis of the deposited data

Results flagged for a closer look

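In 37 groups of 4 to 8 libraries in which a member varied, 12 libraries lay far from the rest of their group, by the gap to the nearest library over the range of the group. The cutoffs are those that set apart about 5% of groups of normally distributed values. CPM are skewed and often 0, so that share gives no background here. A library with counts is always set apart where the rest of its group is at 0. Libraries also recur across genes that share a domain. WT tumor 4 was set apart among the WT tumors for Dlk1 (133 CPM), Meg3 (610 CPM), Rian (231 CPM), Mirg (18.2 CPM) and Igf2 (0.770 CPM). KO tumor 6 was set apart for Igf2 (7.21 CPM). WT line 3 was set apart for Peg3 (958 CPM), Grb10 (106 CPM), Cdkn1c (5.34 CPM) and Rian (0.687 CPM, 17 counts). KO line 1 was set apart for Peg3 (397 CPM), and WT line 4 for Mirg (0.120 CPM, 3 counts).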

How the results depend on the processing

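The labels number no replicates, but by title 5 animals gave both a tumor and a line, and the animal was used as a block for tumors against lines (limma-voom, correlation 0.287). In lines, KO against WT gave 2 calls, and 0 with library totals alone, 46 in DESeq2, 5 in the fit of all 22 libraries and 0 to 2 with 1 library left out, with 980 genes at an unadjusted p under 0.05. In tumors it gave 2 calls, and 889 in DESeq2, 4 in limma-voom, 40 in the fit of all 22 libraries and 2 to 82 with 1 library left out. WT tumors against WT lines gave 8678 calls, 5581 among genes passing the filter in both materials, 5456 with those libraries alone and 7749 to 8978 with 1 left out. KO tumors against KO lines gave 10654, 6914 among genes passing the filter in both materials, and 9656 to 10730 with 1 left out. No relation of Dlk1 across lines passed, and 0 to 1 did with 1 line left out.

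Some directions turned. In KO against WT lines the log2 fold changes with 1 library left out ran from -0.082 (without WT line 1) to 0.30 for Igf2r, which was -0.0040 without WT line 4, from -1.74 to 8.27 (without WT line 3) for Peg3, from -0.43 to 0.052 (without WT line 3) for Cdkn1c and from -4.56 to 2.72 (without WT line 3) for Grb10. In limma-voom Peg3 was 5.24 and Grb10 0.80. Peg3 in WT tumors against lines was 3.39 in limma-voom, 3.66 with the animal block and -4.30 to 4.91 (without WT line 3) with 1 library left out. In KO animals it was 0.51, 0.14 and -0.77 to 0.67 (without KO line 1). The cause was not tested. Depth limits Dlk1, Meg3, Rian, Mirg, H19 and Igf2 in the lines, where 0 counts allow up to 0.133 CPM.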

Other observations

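In RefSeq's promoter table, 8 of the 10 members have windows of 300 bases around a start, and these differ in CpG content. The upstream start of Grb10 had 45 CpG, and 98.1% of 32851 windows had fewer. Igf2r had 34, the upstream start of Meg3 and the start of Peg3 had 13 each, Mirg 10, Dlk1 9 and Rian 0, beside a median of 7 for all windows. The downstream starts of Grb10 and Meg3 had 9 and 1 CpG, and the starts of Igf2, from upstream to downstream, had 2, 14, 24 and 7.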
